A study of Mus musculus with 4 samples.

Results

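The genes described here encode the subunits of the mitochondrial respiratory chain that are made from nuclear DNA. Members were the protein-coding mouse genes whose symbol begins with Nduf, Uqcr, Cox followed by 4 to 8, or Atp5, together with Sdha, Sdhb, Sdhc, Sdhd, Cyc1 and Cycs, with pseudogenes left out. The rule found 95 genes among 45232 gene identifiers, and 90 of them had enough counts to be tested. By the complex they belong to, 36 are subunits of complex I, 8 are complex I assembly factors, 4 belong to complex II, 9 to complex III, 20 to complex IV and 16 to complex V. The remaining genes are Cycs, which encodes cytochrome c, and Atp5s, which is associated with complex V. No measured value entered the rule.

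The respiratory chain passes electrons from NADH through complex I, and from succinate through complex II, to ubiquinone, on through complex III and cytochrome c, and to oxygen at complex IV. Complexes I, III and IV pump protons across the inner mitochondrial membrane, and complex V, the ATP synthase, lets them flow back to make ATP. All complexes except complex II also contain subunits encoded by mitochondrial DNA, so both genomes contribute to the chain. Myeloid leukemia cells are known to depend on oxidative metabolism to varying degrees.

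The libraries were 4 bulk RNA-seq libraries of leukemic granulocyte-monocyte progenitors (L-GMPs). These cells carried the MLL-AF9 fusion, which drives an aggressive acute myeloid leukemia, and were sorted from secondary recipient mice at death as cells positive for c-Kit, Sca-1, CD34 and CD16/32 and for the GFP and tdTom reporters. The labels name the cells Scr in 2 libraries, here Scr 1 and Scr 2, and miR-99 KD in the other 2, here KD 1 and KD 2; the series' design text gives 2 mice per group. The knockdown construct, the strain, the age and whether the recipients shared a primary leukemia were not given in the sources used here. RNA was extracted with Trizol LS and amplified with a SMARTer kit. The mature miR-99 itself was not measured, so the knockdown could not be checked in these libraries.

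Libraries held 38458519 to 42674407 counts on genes, and levels are given as CPM, read counts scaled to a common library size with TMM factors (per 1000000 counts). Scr 1 stood apart: it had counts on 28573 genes against 21372 to 24038 in the others, and a summed olfactory receptor level of 51.9 CPM (here without TMM factors) against 4.78 to 15.0. Alignments that were not unique were most frequent in KD 2, at 23.6% of the library's total against 19.3% to 20.1% in the others. Those on no annotated feature were fewest there, at 12.0% against 13.5% to 19.8%. Whether these shares bear on the levels was not tested. The cells carried Kit, at 424, 437, 307 and 234 CPM (values without names are in the order Scr 1, Scr 2, KD 1, KD 2), but Ly6a, the gene of Sca-1, had only 4 to 8 counts per library although the labels call the cells Sca-1+. A list of 10 granulocyte genes summed to 5770 and 4315 CPM under Scr and to 11320 and 24460 CPM under miR-99 KD, and 9 of the 10 were higher in both KD libraries than in both Scr libraries, against 18.9% of all genes tested. Among its defining genes, Mpo reached 667, 519, 2387 and 4752 CPM and Ltf 4.64, 1.87, 54.3 and 146 CPM. The 8 monocyte genes summed to 997, 905, 1161 and 1456 CPM, of which F13a1 alone stood at 307, 311, 528 and 628 CPM. Of the 8, 4 were higher in both KD libraries and 1 lower, against 18.9% and 25.3% of all genes tested. Of 7 stromal and endothelial genes, summing to 565, 562, 362 and 277 CPM, most of the sum was Vcam1 (445, 444, 207 and 138 CPM), while Pecam1 lay the other way (115, 115, 154 and 136 CPM). Summed T and NK cell genes stood at 2.12, 1.90, 0.65 and 0.45 CPM, of which Klrb1c alone made 1.22, 1.48, 0.27 and 0.24 CPM. Of these 7 genes, 5 had under 10 counts in every library, and Cd4 overlapped between the groups at 22, 5, 11 and 3 counts. The part of these cell types in the results below was not tested. In bulk samples, fewer cells of a type and less RNA per cell cannot be told apart.

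The miR-99 family members in the annotation share 1 seed, which is shown here because the knockdown is named for this family. Capitals mark bases 2 to 8 of the mature RNA (RefSeq, 5′ to 3′).
mmu-miR-99a-5p: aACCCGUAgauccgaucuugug
mmu-miR-99b-5p: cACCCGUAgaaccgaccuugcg
mmu-miR-100-5p: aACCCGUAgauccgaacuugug
A 7-base match was counted in either usual form, TACGGGT (pairing with bases 2 to 8) or ACGGGTA (pairing with bases 2 to 7, followed by A), and was present in the longest annotated 3′ UTR of 1 of 90 tested members (1.11%), against 291 of 12368 tested genes with a UTR (2.35%). The members' UTRs were also shorter, with a median of 235 bases against 1160. The single match, of the second form, lay in Ndufb2, a small membrane-arm subunit of complex I on chromosome 6, with the match in capitals below.
Ndufb2 site: gttacgtaACGGGTAaactccca
Ndufb2 stood at 72.9 and 62.0 CPM under Scr and at 65.6 and 77.4 CPM under miR-99 KD, so the groups overlapped (log2 fold change 0.08 ± 0.19 SE, edgeR adjusted p = 0.904). A sequence match of this kind is a description and does not show binding.

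Promoters of 75 members were available from RefSeq as 80 windows of 300 bases (GRCm38.p6, from 250 bases before to 50 after the start). Letters were searched on both strands for factors known to act on respiratory genes. The palindromic NRF1 motif with any base at its centre was in 25% of member windows, against 4.6% of all 32851 windows and 9.45% of the 13305 windows of tested genes. CCGGAAG, an ETS core of the kind that GABPA binds, was in 22.5%, against 8.86% and 17.1%. AAGATGGC, a form of the YY1 motif, was in 12.5%, against 2.75% and 4.31%. At least 1 of the 3 was in 41 of 80 member windows (51.2%), against 14.7% and 27.5%. YY1 letters were in 7 of 34 complex I windows and in 0 of 14 complex IV windows. The windows below are those of a complex II pair that diverged in 1 library and of a complex IV isoform pair. Capitals mark the NRF1 and ETS letters.
Sdha, chr13:74350191-74350490, minus strand: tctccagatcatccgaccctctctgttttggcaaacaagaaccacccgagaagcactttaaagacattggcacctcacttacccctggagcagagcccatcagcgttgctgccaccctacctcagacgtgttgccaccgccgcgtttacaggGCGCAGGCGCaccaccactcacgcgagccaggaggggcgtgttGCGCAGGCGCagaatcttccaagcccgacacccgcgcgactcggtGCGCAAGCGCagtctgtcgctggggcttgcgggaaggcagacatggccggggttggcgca
Sdhb, chr4:140961021-140961320, plus strand: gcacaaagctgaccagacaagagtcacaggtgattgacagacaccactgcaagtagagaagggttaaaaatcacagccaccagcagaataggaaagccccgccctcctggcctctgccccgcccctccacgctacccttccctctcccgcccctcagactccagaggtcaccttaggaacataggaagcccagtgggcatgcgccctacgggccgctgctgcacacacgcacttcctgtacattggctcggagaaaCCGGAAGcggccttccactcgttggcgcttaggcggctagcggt
Cox6b1, chr7:30626065-30626364, minus strand: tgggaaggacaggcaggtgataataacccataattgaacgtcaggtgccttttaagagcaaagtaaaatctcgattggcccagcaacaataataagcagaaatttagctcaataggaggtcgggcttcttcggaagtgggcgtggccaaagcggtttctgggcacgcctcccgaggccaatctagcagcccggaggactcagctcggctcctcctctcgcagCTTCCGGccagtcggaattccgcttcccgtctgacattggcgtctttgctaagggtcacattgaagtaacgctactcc
Cox6b2, chr7:4753045-4753344, minus strand: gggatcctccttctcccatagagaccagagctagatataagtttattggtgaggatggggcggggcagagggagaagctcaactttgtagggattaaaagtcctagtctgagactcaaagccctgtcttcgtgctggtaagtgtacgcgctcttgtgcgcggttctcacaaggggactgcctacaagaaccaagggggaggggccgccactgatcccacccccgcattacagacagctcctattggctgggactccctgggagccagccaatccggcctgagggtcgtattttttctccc
The Sdha window held the NRF1 letters 3 times and the ETS letters 0 times, and the Sdhb window held the ETS letters once, just after the start. The window of Sdhd, which like Sdhb was highest in KD 2, held both the NRF1 and the ETS letters. Any link of these letters to the levels was not tested. In the isoform pair, the Cox6b1 window held the ETS letters on the opposite strand, and the Cox6b2 window held none of the 3 motifs, which says only that these letters are not in this window. The genes of the factors overlapped between the groups for Nrf1 (103, 111, 107 and 95.04 CPM) and Gabpa (166, 188, 186 and 179 CPM), while Yy1 stood at 10.3 CPM in Scr 1 and at 26.2, 24.7 and 24.7 CPM in the other libraries.

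The comparison of the 2 groups asked which members differed in L-GMPs with miR-99 knockdown. No member passed the test: at an edgeR adjusted p under 0.05, 0 of 90 members and 0 of all 15591 genes tested were called (0%), with members' adjusted p between 0.621 and 0.971. With DESeq2, 0 members were called, against 0.725% of all genes in the higher direction (113) and 0.949% in the lower (148). Only Cox5a had an unadjusted edgeR p under 0.05, in the higher direction, against 2.66% of all genes in that direction and 5.23% in the other. This count depended on the libraries: it was 29 higher and 1 lower without KD 1, 1 higher and 1 lower without Scr 2, and 0 without Scr 1 or without KD 2. Without Scr 1, edgeR called 294 of 15910 genes (1.85%) and 0 members.

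The point estimates nevertheless lay mostly on 1 side. The log2 fold change of miR-99 KD over Scr was positive for 80 of 90 members, against 49% of all genes, with a median of 0.25 and a range of -1.005 to 0.69, against a median of -0.01 over all genes. Both KD libraries exceeded both Scr libraries in 31 members (34.4%), against 18.9% of all genes, and both were lower in 3 members (Sdha, Uqcrc1 and Cox6a2), against 25.3% of all genes. The level was highest in KD 2 for 80 members (88.9%), against 30.6% of all genes, where 35.1% of all genes stood above both Scr libraries, and lowest in Scr 2 for 68 members (75.6%), against 22.4%. In KD 1, 46 of 90 members lay between the 2 Scr libraries, against 30.6% of all genes.

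The shift lay mostly in 1 library. Relative to the mean of the Scr libraries, the median member stood 0.04 higher on the log2 scale in KD 1 but 0.45 higher in KD 2, while Scr 1 stood 0.21 above Scr 2. Without KD 2 the median over members dropped to 0.07 (63 positive, 27 negative), and without KD 1 it was 0.51, with 84 positive. Without Scr 1 it was 0.44, with 87 positive, and without Scr 2 it was 0.18, with 79 positive. Members together took 1.28% and 1.09% of gene counts under Scr and 1.15% and 1.448% under miR-99 KD. The 2 groups therefore overlapped in the summed level, and only KD 2 lay above both Scr libraries.

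**Figure D1:**
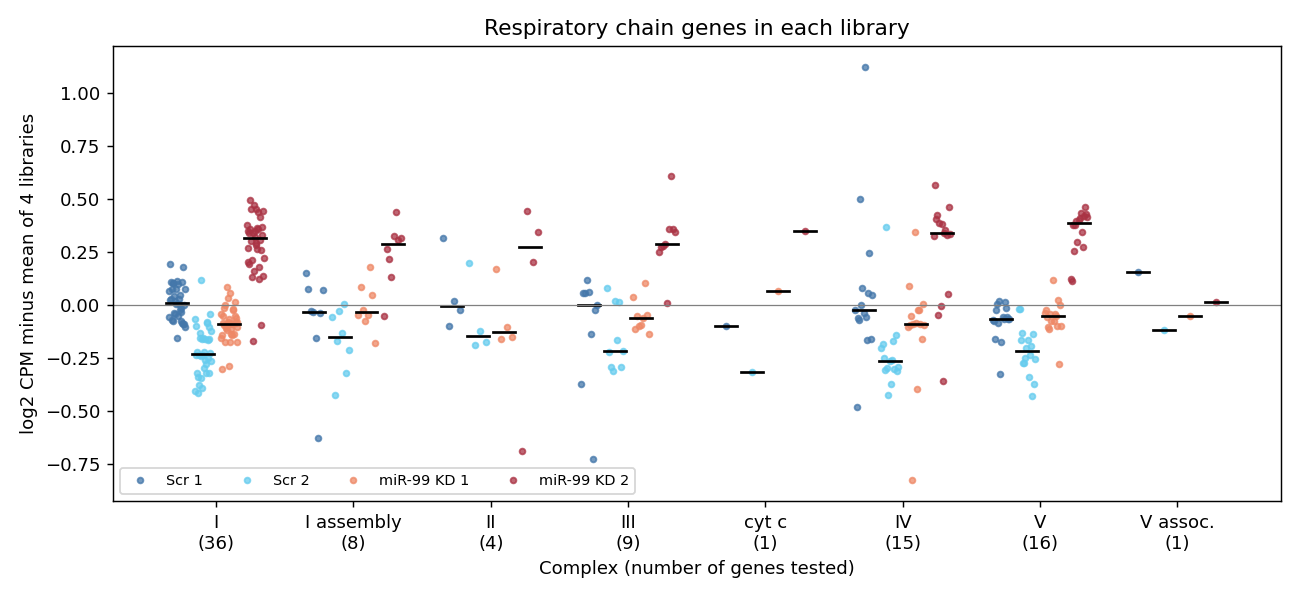
Each point is 1 member's log2 CPM in 1 library minus its mean over the 4 libraries, by complex, and the bars are medians. Over all members the medians were -0.02 and -0.22 for Scr and -0.08 and 0.33 for miR-99 KD.

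Complex I is the NADH dehydrogenase and the largest complex of the chain. Of its 36 subunits 33 had a positive log2 fold change (median 0.21), against 49% of all genes tested. In 10 (27.8%) both KD libraries were above both Scr libraries, against 18.9% of all genes. Its summed level was 3049 and 2665 CPM under Scr and 2869 and 3739 CPM under miR-99 KD, so KD 1 lay between the Scr libraries. The 7 core subunits, which form the electron path of the matrix arm with its flavin and iron-sulfur clusters, were all positive (median 0.19), with 5 of 7 above in both KD libraries. Of the 29 supernumerary subunits, 26 were positive (median 0.22). Both KD libraries were above in 5 (17.2%), near the 18.9% of all genes. The negative ones were Ndufa12, Ndufab1 (the mitochondrial acyl carrier protein) and Ndufs6, each between -0.08 and -0.09.

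Among the core subunits, Ndufv1, which binds the flavin and takes electrons from NADH, stood at 143 and 139 CPM under Scr and at 133 and 157 CPM under miR-99 KD. The groups overlapped, with a log2 fold change of 0.04. Ndufs1, the subunit with the most iron-sulfur clusters, stood at 169 and 163 CPM and at 171 and 188 CPM (log2 fold change 0.11). In this gene KD 1 exceeded the higher Scr library by a small margin.

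The subunits of complex I with the smallest p were supernumerary. Ndufa6, an LYR-motif protein that anchors the acyl carrier protein, stood at 63.6 and 51.6 CPM under Scr and at 67.0 and 91.6 CPM under miR-99 KD (log2 fold change 0.46 ± 0.24 SE, edgeR adjusted p = 0.689). Ndufa5, on the matrix arm, stood at 28.1 and 22.2 CPM and at 29.2 and 41.7 CPM (0.50 ± 0.27 SE, edgeR adjusted p = 0.693). Ndufb5, in the membrane arm, stood at 78.4 and 74.1 CPM and at 83.5 and 120 CPM (0.41 ± 0.23 SE, edgeR adjusted p = 0.697). In all 3, KD 2 stood apart and KD 1 was close to Scr 1. Levels per length are CPM per kb of a gene's annotated exons, merged over its transcripts. Per length, Ndufc2, another membrane-arm subunit, had the highest level of the complex, 141 CPM per kb of exon, where the median subunit had 52.3. Its values were 103, 86.2, 94.6 and 142 CPM, and the groups overlapped.

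The Ndufaf genes encode factors that assemble complex I and are not part of the finished enzyme. Of 8, 7 were positive (median 0.25) and Ndufaf1 was at -0.10. In 5 (62.5%) both KD libraries were above both Scr libraries, against 18.9% of all genes tested. Ndufaf6 stood at 8.07 and 12.5 CPM under Scr and at 14.1 and 16.9 CPM under miR-99 KD (log2 fold change 0.59 ± 0.30 SE, edgeR adjusted p = 0.684), and Scr 1 was the low library. Ndufaf7, a methyltransferase, stood at 37.4 and 30.8 CPM and at 39.6 and 47.5 CPM (0.36 ± 0.22 SE, edgeR adjusted p = 0.705).

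**Figure D2:**
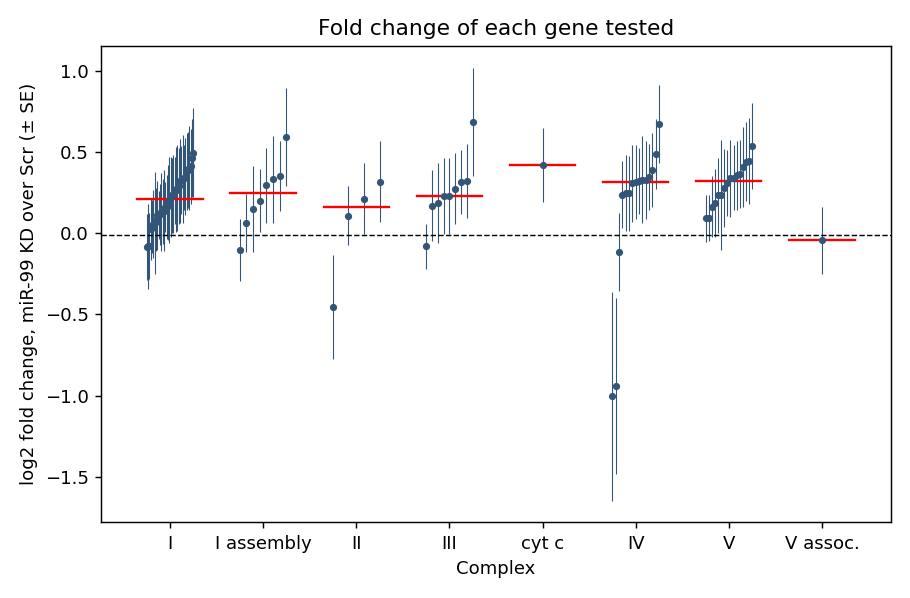
Each point is 1 tested member's log2 fold change, miR-99 KD over Scr, with its SE as the vertical line, sorted within each complex; horizontal bars are medians and the dashed line is the median of all genes tested. The medians were 0.21 for complex I, 0.16 for complex II, 0.23 for complex III, 0.32 for complex IV and 0.32 for complex V.

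Complex II, succinate dehydrogenase, is also an enzyme of the citric acid cycle, and all of its 4 subunits are nuclear. The median of its log2 fold changes was 0.16 (3 positive, 1 negative), and its summed level was nearly the same in the 4 libraries, at 1134, 1039, 1039 and 1056 CPM. Within KD 2, however, the subunits diverged. Sdha, the flavoprotein that oxidises succinate, stood at 519 and 478 CPM under Scr, at 469 CPM in KD 1 and at 258 CPM in KD 2, where it had 10896 counts against 19381 to 21338 in the others. Sdhb, the iron-sulfur subunit that takes the electrons on, stood at 147, 138, 141 and 214 CPM and was highest in that library. The membrane anchors lay likewise, Sdhc at 138, 126, 127 and 158 CPM and Sdhd at 330, 298, 302 and 425 CPM.

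None of the 4 passed the test: Sdha had a log2 fold change of -0.45 ± 0.32 SE (edgeR adjusted p = 0.738) and Sdhb of 0.32 ± 0.25 SE (edgeR adjusted p = 0.754). Per length, the ratio of Sdha to the mean of the other 3 subunits was 1.002 and 1.015 under Scr, 0.981 in KD 1 and 0.383 in KD 2. The ratio was nearly the same in 3 libraries and low in the last, and its value depends on the exon lengths used. Sdha in KD 2 lay -0.92 on the log2 scale from the mean of the other 3 libraries, where the median member lay at 0.44. No other member was as low there, but 1561 of all genes tested (10.01%) were. Without KD 2, the log2 fold change of Sdha was -0.05, that of Sdhc -0.02 and that of Sdhd -0.02, so the divergence was a feature of 1 library.

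Complex III, the cytochrome bc1 complex, hands electrons from ubiquinol to cytochrome c. Of its 9 nuclear subunits 8 were positive (median log2 fold change 0.23). In 2 (22.2%) both KD libraries were above both Scr libraries, near the 18.9% of all genes tested. In 1 (11.1%) both were below, against 25.3% of all genes. The 5 supernumerary subunits were all positive (median 0.23), and in all 5 KD 1 lay between the Scr libraries. Uqcrfs1, the Rieske iron-sulfur protein, had the largest positive log2 fold change of all members, with 92.2 and 154 CPM under Scr and 164 and 233 CPM under miR-99 KD (0.69 ± 0.33 SE, edgeR adjusted p = 0.668). Its spread came from both ends: Scr 1 lay -0.97 on the log2 scale from the mean of the other 3 libraries, where the median member lay at -0.03 and 1547 genes (9.92%) were as low. The heme-bearing Cyc1 was also lowest in Scr 1, at 122 CPM against 167, 163 and 188 CPM.

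The core proteins are structural relatives of a processing peptidase, and their point estimates had opposite signs. Uqcrc1 stood at 423 and 411 CPM under Scr and at 380 and 408 CPM under miR-99 KD (log2 fold change -0.08 ± 0.14 SE, edgeR adjusted p = 0.874). Uqcrc2 stood at 185 and 181 CPM and at 195 and 260 CPM (0.31 ± 0.20 SE, edgeR adjusted p = 0.712). Of the 50-base windows of Uqcrc2, 24.8% also occurred in other genes' transcripts. On the opposite strand, 19.8% of its exons overlap Pdzd9, so its count is uncertain. The groups did not overlap in either gene, though for Uqcrc1 by a small margin. Of all genes tested, 18.9% were higher in both KD libraries and 25.3% were lower in both. The sign for Uqcrc1 turned in some alternative runs, so a difference in direction between the core proteins is not established. Uqcr10, a small subunit and the highest of the complex per length, overlapped between groups at 110, 91.0, 98.2 and 128 CPM. Cycs, cytochrome c, the mobile carrier that also triggers apoptosis when released, stood at 14.1 and 12.1 CPM and at 15.8 and 19.3 CPM (0.42 ± 0.23 SE, edgeR adjusted p = 0.693), both KD libraries being higher. Of the 50-base windows of its transcripts, 28.5% also occurred in transcripts of other genes, so reads may be missing from its count.

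**Figure D3:**
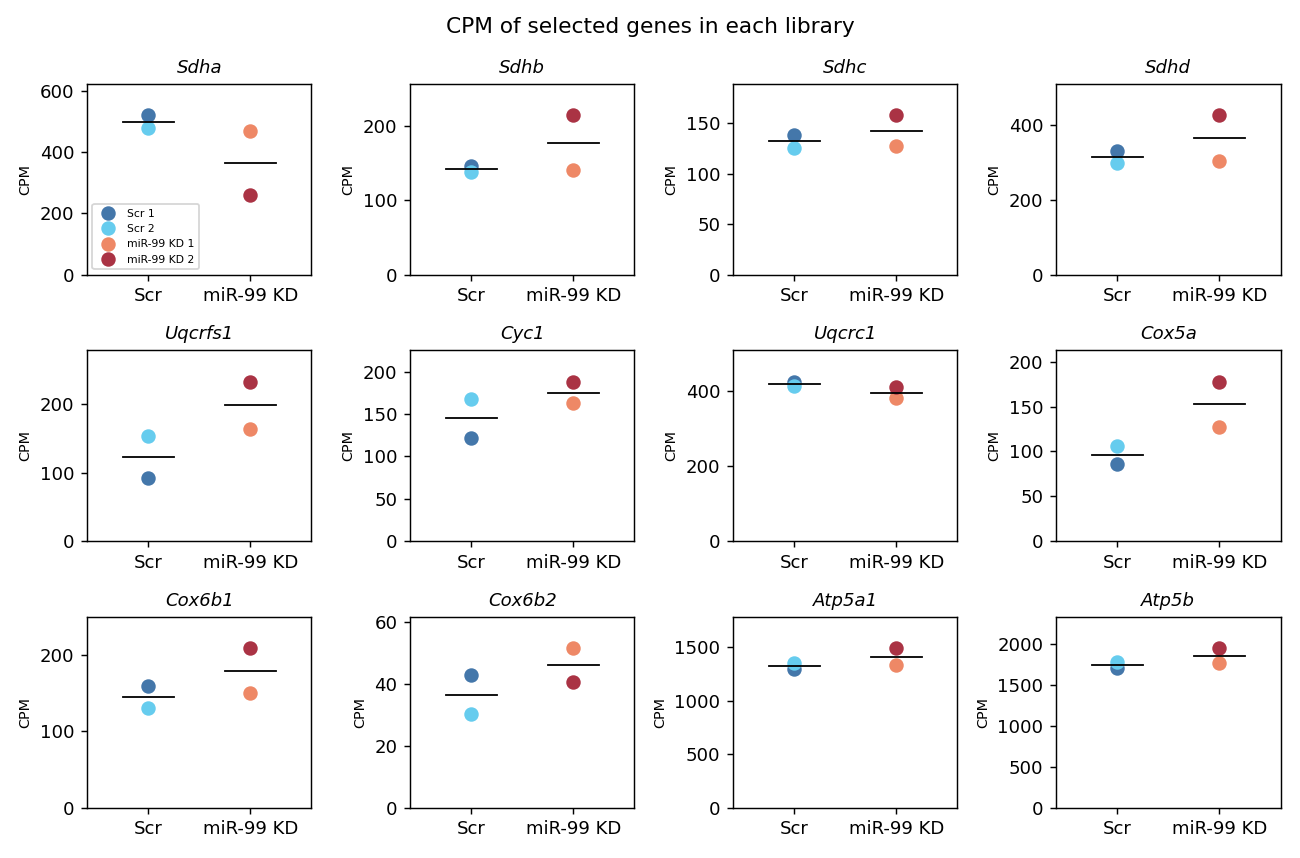
Levels in CPM of 12 selected members, with 1 point per library (n = 2 per group) and a bar at each group's mean. Sdha was at 258 CPM in KD 2 against 469 to 519 CPM in the others, while Sdhb was highest there.

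Complex IV, cytochrome c oxidase, reduces oxygen to water around a core made by mitochondrial DNA, and its nuclear subunits come in ubiquitous and tissue-restricted forms. Of 20 members 15 were tested, and 12 of the 15 were positive (median log2 fold change 0.32). Among the 12 standard subunits, Ndufa4 included, 11 were positive and Cox7c was at -0.11. In 5 (41.7%) both KD libraries were above both Scr libraries, against 18.9% of all genes tested. The summed level was 1604 and 1394 CPM under Scr and 1614 and 2161 CPM under miR-99 KD.

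Cox5a, a matrix-facing subunit, had the smallest p of all members, at 85.8 and 106 CPM under Scr and 128 and 177 CPM under miR-99 KD (log2 fold change 0.67 ± 0.24 SE, unadjusted p = 0.0428, edgeR adjusted p = 0.621, DESeq2 adjusted p = 0.569). Of its 50-base windows 32.1% also occurred in other genes' transcripts, and 12.8% of its exons overlap Gm26631 on the opposite strand, so its count is uncertain. Cox8a, a small membrane subunit, stood at 134 and 120 CPM and at 150 and 206 CPM (0.49 ± 0.22 SE, edgeR adjusted p = 0.659). Cox6a1, the highest of the complex per length, stood at 169 and 143 CPM and at 171 and 238 CPM (0.39 ± 0.23 SE, edgeR adjusted p = 0.701). In Cox5a and Cox8a both KD libraries cleared the higher Scr library, and in Cox6a1 KD 1 did so only narrowly. Cox4i1, a subunit that joins early in assembly, stood at 366, 324, 347 and 467 CPM and overlapped.

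The isoforms showed which form the cells used. Counts went almost wholly to Cox4i1 rather than Cox4i2, the lung and hypoxia form, which had 5, 6, 5 and 12 counts, at most 0.0609% of the pair (95% Wilson interval 0.0348 to 0.106). The striated muscle form Cox6a2 had 18 and 16 counts under Scr and 6 and 12 under miR-99 KD (log2 fold change -0.94 ± 0.54 SE, edgeR adjusted p = 0.701), against 5804 to 10033 for Cox6a1. Cox7a1, the heart and muscle form, had 58 counts in Scr 1 and 19, 19 and 20 in the others. Its log2 fold change of -1.005 therefore rested on Scr 1, and was 0.07 without it. Its ubiquitous partner Cox7a2 stood at 114, 99.3, 117 and 150 CPM, and the related Cox7a2l, a factor of supercomplex assembly, at 54.9, 54.7, 60.6 and 78.8 CPM. Cox7b stood at 114, 89.4, 104 and 138 CPM and Ndufa4 at 163, 128, 147 and 198 CPM. Their restricted partners were among the members that failed the count filter: Cox7b2 had 3, 0, 0 and 0 counts, Ndufa4l2 had 1, 0, 0 and 0, Cox8b had 0, 0, 0 and 1, and Cox8c had 2, 1, 0 and 0. For Cox8b under Scr, the limit taken for a count of 0, which is 3 counts, came to 0.0546% and 0.0616% of the Cox8a and Cox8b counts.

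Cox6b2 was the exception among the restricted isoforms. Known as the testis form of the subunit that faces the intermembrane space, it stood at 43.0 and 30.2 CPM under Scr and at 51.5 and 40.5 CPM under miR-99 KD, while Cox6b1 stood at 160, 130, 150 and 208 CPM. It made up 21.2% of the pair's counts in Scr 1 (95% Wilson interval 20.3 to 22.1), 18.9% in Scr 2 (17.9 to 19.8), 25.6% in KD 1 (24.7 to 26.5) and 16.3% in KD 2 (15.6 to 17.0). These intervals cover counting error only. The share was highest in 1 KD library and lowest in the other, so the groups overlapped. Per length, Cox6b2 was at 0.172, 0.149, 0.220 and 0.124 of the Cox6b1 level. These ratios depend on the lengths used: the merged exons of Cox6b2 came to 1108 bases and its longest coding transcript to 585. For Cox6b1 these lengths were 708 and 618 bases. The transcripts of Cox6b2 shared no 50-base window with other genes, and its exons overlapped no other gene.

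Complex V is the rotary ATP synthase, with an F1 head in the matrix, a c ring that turns in the membrane and a stalk that holds the head still. All 16 members were positive, with a median log2 fold change of 0.32. In 8 (50%) both KD libraries were above both Scr libraries, against 18.9% of all genes tested. The summed level was 4697 and 4676 CPM under Scr and 4823 and 5762 CPM under miR-99 KD. By part, the median was 0.16 for the 5 genes of the F1 head, 0.36 for the 3 genes of the c ring, 0.35 for the 4 of the peripheral stalk and 0.34 for the 4 small membrane subunits. Whether the head differed from the other parts was not tested.

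Per kb of merged exon, the highest members were genes of the F1 head. These were Atp5a1, the alpha subunit, at 437 CPM per kb, and Atp5b, the catalytic beta subunit, at 426. Their order depends on the length used: the merged exons of Atp5b came to 4237 bases and its longest coding transcript to 1916. For Atp5a1 these lengths were 3135 and 2674 bases. Atp5a1 stood at 1301 and 1351 CPM under Scr and at 1335 and 1491 CPM under miR-99 KD (log2 fold change 0.09), and Atp5b at 1711 and 1780 CPM and at 1774 and 1949 CPM (0.09). Their ratio per length was 1.03, 1.03, 1.02 and 1.03, so these partners, which alternate in the head, stood in nearly the same proportion in all 4 libraries. The value of the ratio itself depends on the lengths used. Atp5g2, which encodes the same c-ring protein as Atp5g1 and Atp5g3, was low, with 104 and 112 counts under Scr and 143 and 178 under miR-99 KD (0.54 ± 0.26 SE, edgeR adjusted p = 0.674). Atp5mpl, a small membrane subunit, stood at 49.6 and 40.1 CPM and at 52.0 and 70.0 CPM (0.44 ± 0.24 SE, edgeR adjusted p = 0.693), and Atp5f1, the stalk subunit b, at 247 and 217 CPM and at 255 and 345 CPM (0.37 ± 0.21 SE, edgeR adjusted p = 0.701). In these 3, KD 1 lay above the higher Scr library, only just so in Atp5mpl and Atp5f1. Atp5s, which is not a subunit, was at -0.04.

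**Figure D4:**
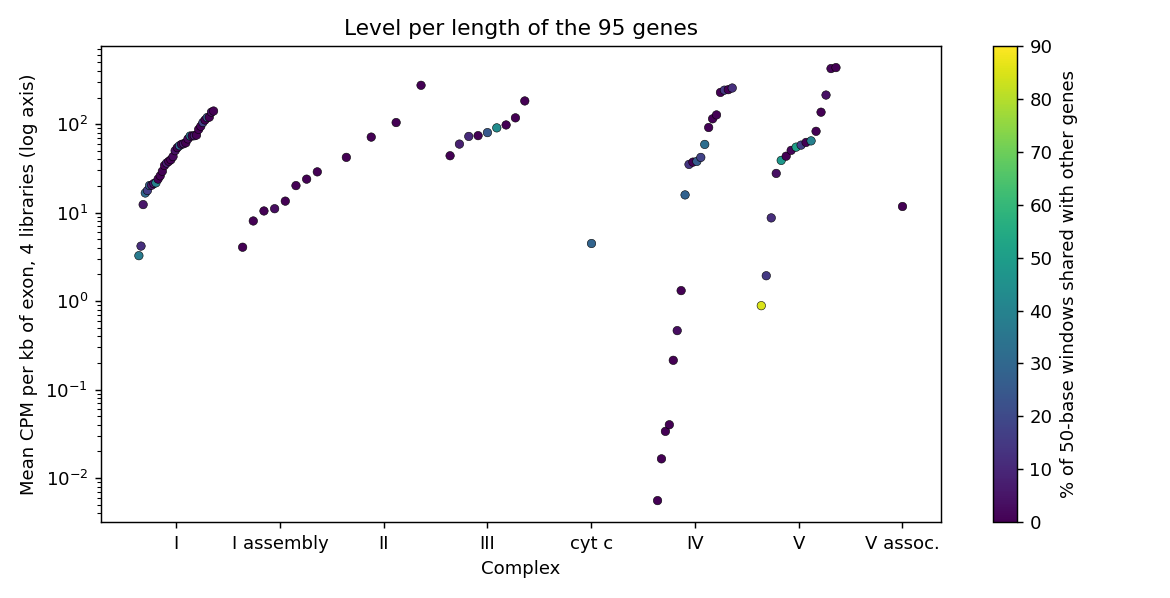
Mean level of each of the 95 members over the 4 libraries in CPM per kb of exon, on a log axis, by complex, with the colour giving the percentage of 50-base windows shared with other genes. Atp5a1, at 437, was the highest member on this measure, and tissue-restricted complex IV isoforms were the lowest.

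Levels per length spanned from 3.26 CPM per kb (Ndufb4) to 141 in complex I, from 42.2 to 275 in complex II (Sdhd the highest) and from 44.0 to 183 in complex III. Low values can reflect reads that match several places, which were not counted: 84.9% of the 50-base windows of Atp5l, 50.3% of Atp5o and 37.0% of Ndufb4 also occurred in other genes' transcripts. They also depend on the merged exon length, which was 6443 bases for Atp5l, where its longest coding transcript had 544. For Ndufb4 these lengths were 1916 and 971 bases. Of the 95 members, 28 had over 10% of such windows. Among members named for a small p, these also included Atp5f1 (38.7%), Ndufb5 (16.2%) and Atp5g2 (14.8%), so their counts are uncertain. Atp5l stood at 0.887 CPM per kb, the lowest value in complex V.

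Members were short, with a median exon length of 1737 bases against 3740 for all tested genes, and length moved with the comparison. Genes under 1000 bases had a median log2 fold change of 0.30 in 20 members and 0.20 in 1572 of all genes, those of 1000 to 2000 bases 0.27 and 0.09, and longer ones 0.19 and -0.05. The members' median was above that of all genes in each bin. Between the Scr libraries, the difference of Scr 1 from Scr 2 was also smaller for longer genes. Its Spearman correlation with exon length was -0.53 across members and -0.19 over all genes tested. For the log2 fold change of miR-99 KD over Scr, these correlations were -0.19 and -0.18. The genes (n = 90 members) share libraries and are not replicates. With each library's length trend removed, the members' median was 0.22, and its distance above the median of all genes was 0.17, against 0.26 without this step.

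**Figure D5:**
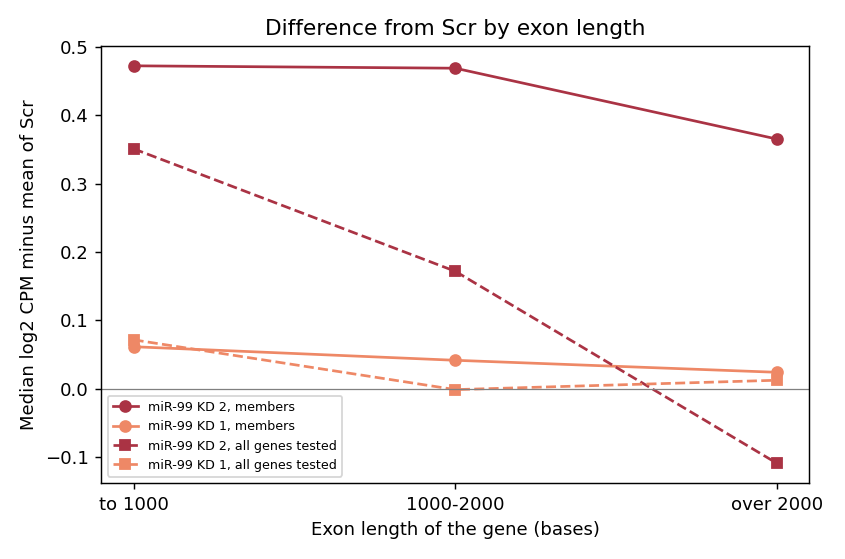
Median difference of each miR-99 KD library from the mean of Scr, on the log2 CPM scale, by exon length in bases, for members (solid lines, circles) and all genes tested (dashed lines, squares). For KD 2 the members' medians were 0.47, 0.47 and 0.36 from short to long and those of all genes 0.35, 0.17 and -0.11, while for KD 1 all lay near 0.

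Of the 13 subunits encoded by mitochondrial DNA, which assemble with the members, 12 were tested, and mt-Nd4l had 2, 1, 6 and 6 counts. All 12 lay higher in both KD libraries, against 18.9% of all genes tested, with a median log2 fold change of 0.60. In 5 the unadjusted edgeR p was under 0.05, against 2.66% of all genes in this direction, and none passed the adjusted test. Counts differed widely: mt-Co1 had 70475, 84075, 102868 and 151476, mt-Co2 61, 42, 79 and 78, and mt-Atp8 only 14, 13, 15 and 17. The 2 with the smallest p were mt-Nd5, a proton-pumping subunit of complex I, at 440, 487, 641 and 789 CPM (log2 fold change 0.62 ± 0.18 SE, edgeR adjusted p = 0.580), and mt-Nd6, at 69.9, 69.3, 96.3 and 122 CPM (0.65 ± 0.19 SE, edgeR adjusted p = 0.583). All genes on mitochondrial DNA, rRNA and tRNA genes included, made up 0.650% and 0.637% of gene counts under Scr and 0.853% and 1.16% under miR-99 KD. For the 12 subunits KD 1 also stood above both Scr libraries, and the groups did not overlap, though for mt-Atp8 by a small margin at few counts.

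Other lists of the pathway differed in direction. Of 38 tested assembly factors, 29 were positive (median 0.20), where 49% of all genes tested were positive. Timmdc1, a complex I factor, had 111 and 131 counts under Scr and 211 and 200 under miR-99 KD (log2 fold change 0.73 ± 0.25 SE, edgeR adjusted p = 0.621), and Cox15, which makes heme a for complex IV, stood at 191, 187, 152 and 123 CPM (-0.46 ± 0.17 SE, edgeR adjusted p = 0.634). Of 22 nuclear regulators of the chain 9 were positive (median -0.03). Ppargc1a, a coactivator of mitochondrial biogenesis, had 54, 16, 1 and 9 counts (-2.81 ± 1.09 SE, edgeR adjusted p = 0.639), and Mterf2, of the mitochondrial transcription termination factor family, stood at 13.9, 15.1, 11.0 and 10.6 CPM (-0.42). Of 23 genes for electron feeders and the citric acid cycle, 16 were positive (median 0.12). Dhodh, the ubiquinone-linked enzyme of pyrimidine synthesis, stood at 71.5, 71.5, 61.7 and 48.5 CPM (-0.38), and Gpd2, the mitochondrial glycerol phosphate dehydrogenase, at 131, 128, 148 and 151 CPM (0.21). Of the ATP synthase parts whose symbols lie outside the rule, Usmg5, a small membrane subunit, had a log2 fold change of 0.31 and Atpif1, the ATPase inhibitor, of 0.19.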

How the data were processed

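Bulk RNA-seq of 2 Scr and 2 miR-99 KD libraries was used as the authors deposited it: raw counts per gene and library. STAR, Picard, HTSeq and DESeq2 and the mm9 build are named per the submitters' processing notes; versions, roles, annotation release and strand setting were not given in the sources used here. The 5 summary categories that name no gene held 43.7% to 49.7% of a library's total and were left out. Names, exon lengths (all annotated exons of a gene, merged) and 3′ UTRs came from GENCODE M21 (GRCm38), matched by gene identifier. Of 45232 identifiers, 44585 had a symbol. Genes were kept by edgeR's default count filter (minimum count 10), and 15591 were fitted with edgeR 4.0.16 (R 4.3.3): TMM factors, quasi-likelihood test, two-sided, Benjamini-Hochberg adjustment over all genes, threshold 0.05. The common biological coefficient of variation came to 0.32, from 2 residual degrees of freedom. CPM are counts per 1000000 of the TMM-scaled library of tested genes. DESeq2 1.42.0, limma 3.58.1 (voom), other factors and filters, leaving out each library and a replicate block were alternatives. Genes named are, per complex, the 3 of smallest p and the highest per length, fixed central subunits, isoform pairs and untested members, and the 2 of smallest p in each other pathway list; 1 gene that the rule names is not reported here. Members and lists were chosen with earlier results of these data known. Nothing states separate cultures beyond 2 mice per group, so p-values measure the spread between these samples.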

Additional observations from a re-analysis of the deposited data

How the results depend on the processing

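No member was called under any alternative run. Among all genes, 0 were called in the edgeR test, 23 with upper-quartile factors, 9 with no filter on low counts, 261 with DESeq2 and 0 to 294 when a library was left out, the 294 (1.85%) without Scr 1. After the data were seen, 2 alternatives were added: 3 genes were called with each library's length trend removed, and 0 with each library's GC trend removed. The members' median was 0.22 with the length trend removed and 0.33 with the GC trend removed, against 0.25 in the main fit. Replicate numbers do not pair the samples per the labels, and same-numbered libraries deviated in opposite directions (correlation -0.43); with the replicate block 0 genes were called and the members' median was 0.24, and with the pairing crossed, also chosen after seeing the data, 28 genes were called. When a library was left out, the median ranged from 0.0456 to 0.480 for complex I, -0.0216 to 0.408 for complex II, 0.0878 to 0.446 for complex III, 0.0919 to 0.554 for complex IV and 0.110 to 0.613 for complex V, the lowest in each without KD 2. Leaving out a library gave log2 fold changes of -1.54 to 0.0677 for Cox7a1, -0.0517 to 0.22 for Ndufv1, -0.022 to 0.32 for Sdhc, -0.0211 to 0.50 for Sdhd, -0.0032 to 0.41 for Uqcr10 and -0.10 to 0.0308 for Uqcrc1, which turned sign. Uqcrc1 was also positive with the length trend (0.0143) or the GC trend (0.0672) removed. The cause was not tested. With no filter the median of all genes was -0.20 and that of members 0.31. Cox6a2 had 6 to 18 counts per library, and Cox7a1 19 or 20 in 3 of the 4, so counting error bears on both.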
